A study of Canis lupus familiaris with 33 samples.

Results

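A set of 9 transcription factors and cofactors that steer B cells through the germinal centre and into the plasma cell were followed in lymph nodes of dogs with diffuse large B-cell lymphoma (DLBCL), a tumour of mature B cells. The members were taken by gene symbol: BCL6, PRDM1, IRF4, IRF8, PAX5, XBP1, SPIB, POU2AF1 and EBF1. Of these 9 genes, 7 had a probeset with that single symbol in the annotation of the Affymetrix Canine Genome 2.0 array, and together they had 15 of the 43035 probesets. IRF4 and SPIB were matched by neither symbol nor gene ID and were not analysed here.

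RNA was measured in nodes of 7 dogs with relapsed DLBCL, of 16 dogs with DLBCL that had received no chemotherapy (naive), and of 7 healthy dogs. One dog gave both a naive sample (number 11) and a relapsed sample (number 12), so that the DLBCL group held 22 dogs, and the 10 healthy arrays included 4 of 1 animal, called healthy dog 1. For 4 of the 7 relapsed dogs the listed chemotherapy included CHOP (cyclophosphamide, doxorubicin, vincristine and prednisone), the others had other drug protocols, and 13 to 672 days had passed since the last treatment. Relapsed dogs were 6.4 to 11.8 years old (6 male, 1 female) and naive dogs 2.7 to 13.3 years old (8 male, 8 female), and 1 relapsed and 3 naive dogs were on other medication. The labels list 10 breeds among the naive and 6 among the relapsed dogs. Healthy nodes came from dogs put down for conditions other than lymphoma, and their age, sex and breed are not given in the labels. PAX5 staining of tissue had been part of the diagnosis of DLBCL, so that the tumours had been chosen for PAX5 protein.

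In the germinal centre, B cells divide rapidly and mutate their antibody genes under the control of BCL6, a repressor that holds back differentiation. PRDM1 (Blimp-1) and BCL6 repress each other, and a rise of PRDM1 followed by XBP1 turns the cell into an antibody-secreting plasma cell. PAX5 and EBF1 maintain B-cell identity, while POU2AF1 (OBF-1) and IRF8 are needed for, or promote, the germinal centre programme. These roles were worked out in mouse and human cells.

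Expression is given as log2 values, on which a difference of 1 is a 2-fold change. The 17 control probesets without a canine target had means of 2.79 to 4.56, which marks the background. Arrays of one dog were averaged, differences were tested with limma over all probesets, and an adjusted p under 0.05 was taken as a call. Where a gene had several probesets, the brightest stood for it. The mean of 6 B-cell markers lay between 8.97 and 12.05 in DLBCL and between 10.40 and 11.35 in healthy nodes. It was lowest in naive DLBCL sample 5, below every healthy node, and above every healthy node in 19 of the 22 DLBCL dogs. Sample 5 and relapsed sample 18 stood apart from the other tumours in earlier results of these data, and results are given without them where this matters. The RNA integrity number (RIN, which is highest for intact RNA) averaged 9.64 in the 22 DLBCL dogs (SD 0.294) against 7.11 in the 7 healthy dogs (SD 1.12).

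Between DLBCL and healthy nodes, POU2AF1 was higher, and BCL6, PRDM1 and XBP1 were lower. EBF1, IRF8 and PAX5 did not pass the test. Thus 1 of the 7 genes was called higher and 3 were called lower, against 19.9% and 14.9% of all 15115 measured genes. With RIN as a covariate, 0 of the 7 genes were called by limma, and 2 (BCL6 and PRDM1) had an unadjusted p under 0.05. In that fit 0.668% of all genes were called higher and 1.19% lower.

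**Figure D1:**
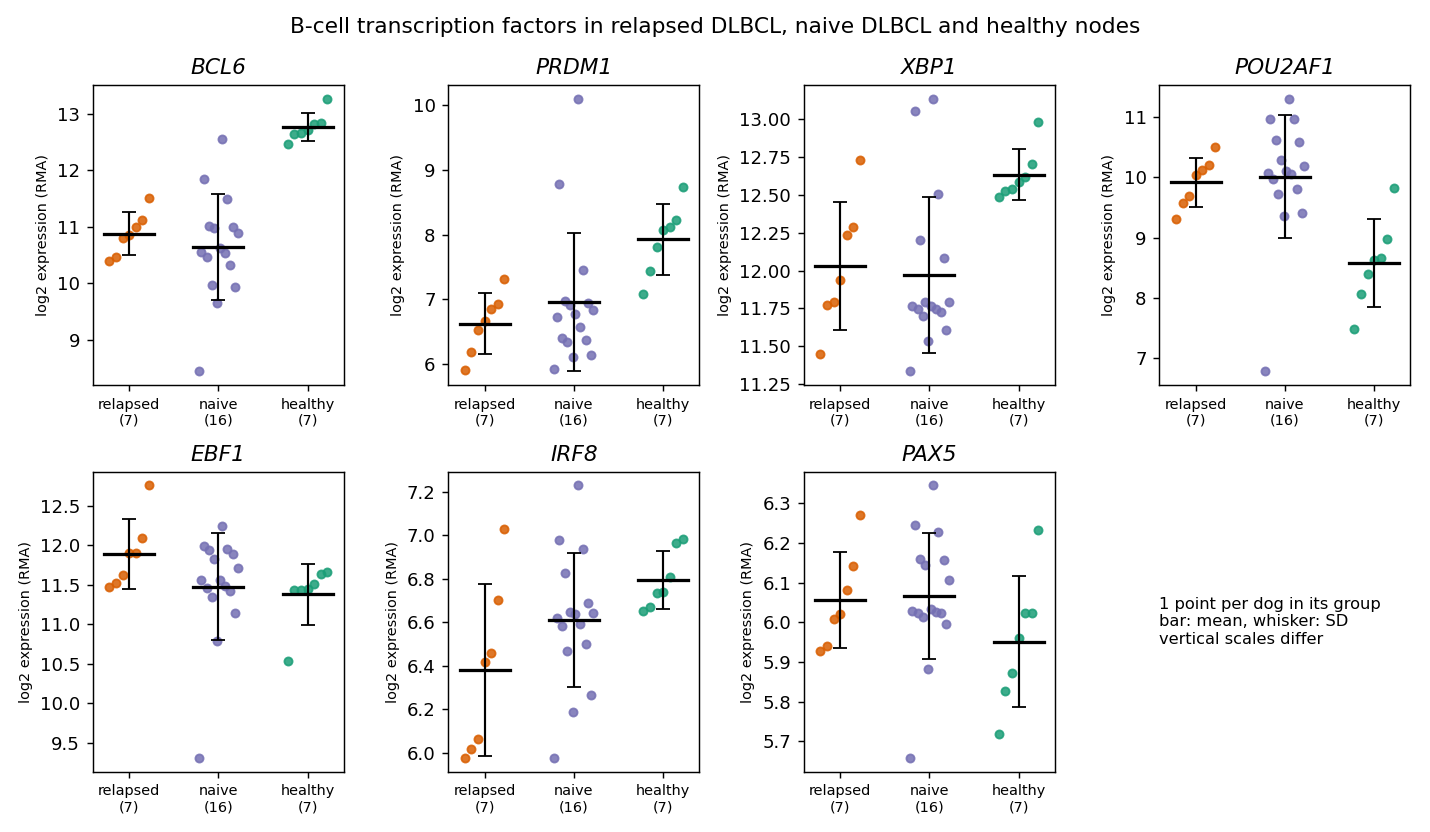
Log2 expression (vertical axes, which differ in scale) of the 7 measured genes in each dog of the relapsed DLBCL (7), naive DLBCL (16) and healthy (7) groups, with group means (horizontal bars) and SD (whiskers). All 7 relapsed dogs and 15 of 16 naive dogs lie below every healthy dog for BCL6, and most DLBCL dogs lie above the healthy dogs for POU2AF1.

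BCL6, the master repressor of the germinal centre, showed the greatest difference of the 7 genes. In relapsed DLBCL its values ran from 10.39 to 11.50 with a median of 10.84, in naive DLBCL from 8.44 to 12.56 with a median of 10.59, and in healthy nodes from 12.46 to 13.26 with a median of 12.71. Every relapsed dog lay below every healthy dog, as for 3.45% of all genes (8.96% were called lower in that comparison by limma), and of the naive dogs only sample 5 reached the healthy range. The lowest value was that of naive sample 20. The mean was 10.74 ± 0.80 (SD, n = 22) in DLBCL and 12.76 ± 0.25 (SD, n = 7) in healthy nodes, a log2 difference of -2.03 (SE 0.30, limma, adjusted p = 7.5e-06). With RIN in the fit the difference was -1.51 (adjusted p = 0.25, the highest of all alternatives, which began at 2.1e-07). Healthy dog 1 had the most intact healthy RNA, with RIN 8.8 to 9.4 against 8.9 to 10 in naive and 9.1 to 9.9 in relapsed samples. Its 4 arrays gave BCL6 values of 12.31 to 12.67, above 21 of the 22 DLBCL dogs. Their mean, 12.46, was the lowest of the 7 healthy dogs. The part of RIN in the BCL6 difference was not tested.

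PRDM1, which extinguishes the B-cell programme in plasma cell precursors, was also lower in DLBCL. Relapsed dogs had 5.91 to 7.32 (median 6.67), naive dogs 5.92 to 10.09 (median 6.75) and healthy dogs 7.08 to 8.74 (median 8.07). Of the 22 DLBCL dogs, 18 lay below all healthy dogs and 2 above them, namely naive samples 21 (10.09) and 5 (8.78). DLBCL averaged 6.87 ± 0.94 (SD, n = 22) and healthy nodes 7.92 ± 0.55 (SD, n = 7), a difference of -1.05 (SE 0.36, limma, adjusted p = 0.026). The call was lost without healthy dog 1 (adjusted p = 0.074), without healthy dog 7 (adjusted p = 0.052) and with RIN (difference -1.71, adjusted p = 0.29), while over all alternatives the adjusted p started at 0.00092. The 4 arrays of healthy dog 1 lay at 8.50 to 9.14.

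XBP1 drives the secretory machinery of plasma cells and the unfolded protein response of many other cells. It was an abundant transcript in every node, at 11.45 to 12.73 (median 11.93) in relapsed, 11.33 to 13.14 (median 11.77) in naive and 12.48 to 12.98 (median 12.58) in healthy dogs. The same 2 naive samples as for PRDM1 lay above all healthy dogs, sample 21 at 13.14 and sample 5 at 13.05, and 18 of 22 lay below. The means were 12.01 ± 0.48 (SD, n = 22) in DLBCL and 12.63 ± 0.17 (SD, n = 7) in healthy nodes, a difference of -0.63 (SE 0.18, limma, adjusted p = 0.0080). Its second probeset gave -0.57 (adjusted p = 0.056) and ran closely with the first over the DLBCL dogs (r = 0.98). With RIN the difference was -0.73 (adjusted p = 0.39), and adjusted p over all alternatives was 0.00020 to 0.39.

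POU2AF1, a coactivator of octamer-binding factors that germinal centres require, went the other way. Values were 9.31 to 10.49 (median 10.03) in relapsed, 6.78 to 11.30 (median 10.09) in naive and 7.49 to 9.82 (median 8.62) in healthy dogs. Above every healthy dog lay 15 of 22 DLBCL dogs, and only sample 5 lay below every one, at 6.78. The mean of 9.99 ± 0.89 (SD, n = 22) in DLBCL stood against 8.57 ± 0.73 (SD, n = 7) in healthy nodes, a difference of 1.42 (SE 0.36, limma, adjusted p = 0.0028). It was 1.62 without samples 5 and 18 and 1.30 with RIN (adjusted p = 0.45). Adjusted p over all alternatives was 6.1e-06 to 0.45. In healthy dog 1 the 4 arrays gave 8.42 to 9.03, below all DLBCL dogs other than sample 5, and the part of RIN was not tested.

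The nodes were measured whole, so that fewer cells of a type and less RNA per cell cannot be told apart. The mean of 11 T-cell markers was 7.65 to 9.86 in DLBCL and 10.21 to 11.17 in healthy dogs, with all 22 DLBCL dogs below. The share of all genes with such a gap was not counted. Of the 11 genes, 9 were called lower, where 14.9% of all genes were called lower and 19.9% higher. For 7 markers of follicular helper T cells, which themselves need BCL6, the mean was 6.30 to 7.87 in DLBCL and 8.11 to 9.19 in healthy dogs, and 5 of the 7 were called lower. The mean of 4 plasma cell markers overlapped between DLBCL (8.47 to 10.47) and healthy dogs (9.29 to 10.10). Of the 22 DLBCL dogs, 11 lay below every healthy dog and 1, sample 21, lay above. Of the 4 genes, 2 were called higher and 1 lower. Natural killer cell markers measured were NKG7, PRF1, GZMB, NCR3 and EOMES. Their mean was 6.49 to 9.95 in DLBCL and 8.42 to 9.17 in healthy dogs. There 17 of the 22 DLBCL dogs lay below every healthy dog and 2 above, and 3 of the 5 genes were called lower. For 8 macrophage markers the mean was 8.62 to 10.95 in DLBCL and 9.49 to 11.80 in healthy dogs. Here 10 of the 22 lay below and 0 above, and 3 of the 8 genes were called lower. The part of these shifts in the differences of BCL6, PRDM1 and XBP1 was not tested.

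**Figure D2:**
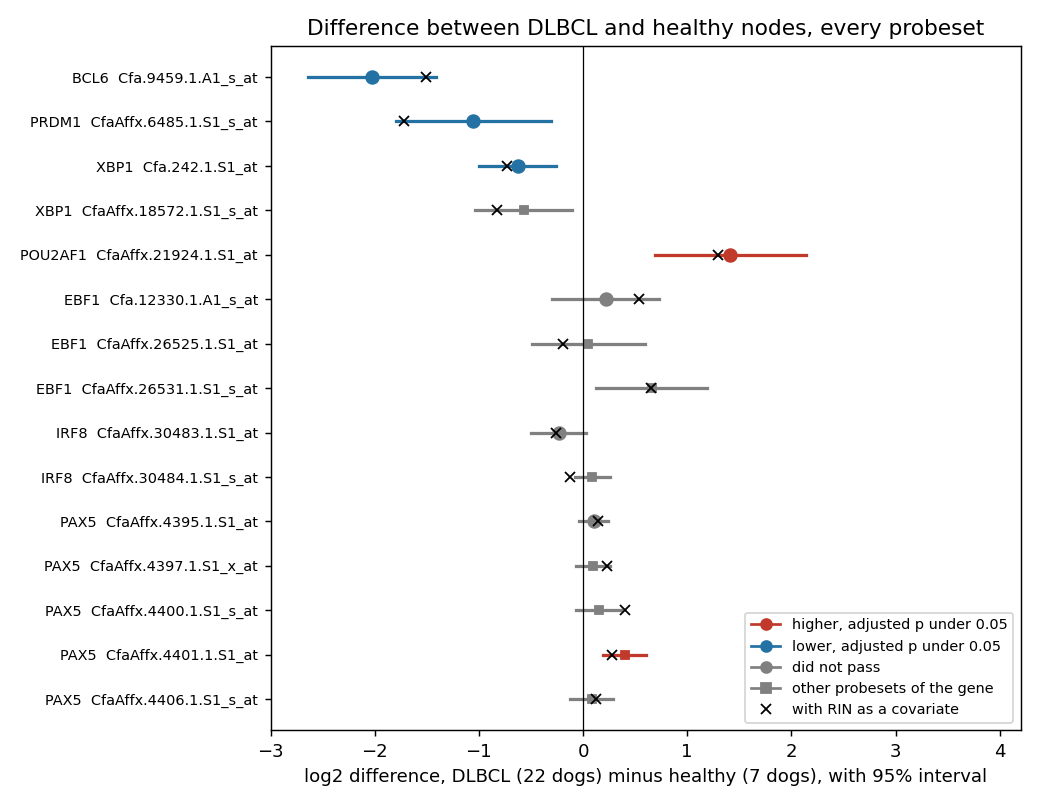
Log2 difference, DLBCL (22 dogs) minus healthy (7 dogs), with its 95% interval for each of the 15 probesets (circles: the probeset a gene is read from; squares: further probesets; crosses: with RIN as a covariate). Past the threshold, BCL6, PRDM1 and 1 XBP1 probeset were lower, and POU2AF1 and 1 dim PAX5 probeset were higher.

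The factors that maintain B-cell identity differed less. EBF1, which opens the early B-cell programme, had 11.48 to 12.76 (median 11.90) in relapsed, 9.31 to 12.24 (median 11.56) in naive and 10.54 to 11.66 (median 11.44) in healthy dogs. The difference between DLBCL and healthy nodes was 0.22 (95% interval -0.30 to 0.73, limma, adjusted p = 0.54). Relapsed sample 18 was highest and naive sample 5 lowest. The 3 EBF1 probesets ran together (r = 0.93 to 0.96). With arrays averaged by dog, 1 of them lay at 9.21 to 10.15 in relapsed dogs, above every healthy dog, at 7.19 to 9.12. This difference was 0.93 (SE 0.31, limma, adjusted p = 0.034). A single array of healthy dog 1 read 9.37 there, within the relapsed range. The other probesets overlapped, with 4 of 7 relapsed dogs above every healthy dog in the brightest and 1 of 7 in the remaining one. Of all probesets, 2.33% had every relapsed dog above every healthy dog, and limma called 10.2% higher in relapsed than in healthy nodes.

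PAX5, the factor that commits a cell to the B lineage, was read from 5 dim probesets. Its brightest had 5.93 to 6.27 (median 6.02) in relapsed, 5.66 to 6.35 (median 6.03) in naive and 5.72 to 6.23 (median 5.96) in healthy dogs, which overlap almost completely. The difference was 0.10 (95% interval -0.04 to 0.24, limma, adjusted p = 0.25). Another PAX5 probeset was higher in DLBCL, 4.31 to 5.09 against 4.07 to 4.80 in healthy dogs (difference 0.40, SE 0.10, limma, adjusted p = 0.0026). Such values are close to the control probesets, and 19% of all probesets were called higher in DLBCL. The 5 probesets ran together poorly over the DLBCL dogs (r = -0.23 to 0.45), so that variation of PAX5 between dogs was not well measured.

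IRF8, a factor of B cells and of myeloid and dendritic cells, had 5.97 to 7.03 (median 6.42) in relapsed, 5.98 to 7.23 (median 6.63) in naive and 6.65 to 6.98 (median 6.74) in healthy dogs. Below every healthy dog lay 15 of the 22 DLBCL dogs, yet the difference of -0.23 did not pass (95% interval -0.50 to 0.03, limma, adjusted p = 0.17). Its second probeset gave 0.09, and the 2 ran together with r = 0.55. The mean of 8 dendritic cell markers was below every healthy dog in all 22 DLBCL dogs (7.62 to 9.06 in DLBCL, 9.43 to 10.06 in healthy nodes). The share of all genes with such a gap was not counted, and the part of these markers in the IRF8 values was not tested.

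Relapsed and naive DLBCL were each set against the same 7 healthy dogs, so that the 2 comparisons are not independent. In relapsed DLBCL 3 of the 7 genes were called, 1 higher and 2 lower, against 10.8% and 8.96% of all genes. In naive DLBCL 4 were called, 1 higher and 3 lower, against 19.9% and 15.1% of all genes. BCL6 differed from healthy nodes by -1.89 in relapsed and -2.13 in naive DLBCL (limma, adjusted p = 0.00078 in relapsed and 8.4e-06 in naive). PRDM1 differed by -1.30 in relapsed (limma, adjusted p = 0.040) and by -0.96 in naive DLBCL (limma, adjusted p = 0.049). POU2AF1 differed by 1.34 in relapsed (limma, adjusted p = 0.031) and by 1.44 in naive DLBCL (limma, adjusted p = 0.0035). XBP1 differed by -0.60 in relapsed and -0.67 in naive DLBCL (limma, adjusted p = 0.062 in relapsed and 0.0085 in naive). Some of these calls depended on single healthy dogs. Without healthy dog 1, 5, 7, 8 or 9, PRDM1 lost its call in relapsed (adjusted p = 0.056 to 0.085) and in naive DLBCL (adjusted p = 0.068 to 0.12, limma). POU2AF1 lost its call in relapsed DLBCL without healthy dog 5, 6 or 7 (limma, adjusted p = 0.051 to 0.075), and without dog 5 or dog 7 only BCL6 was called there. Without samples 5 and 18, XBP1 was called in relapsed DLBCL too (-0.72, limma, adjusted p = 0.0085).

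Set directly against each other, relapsed and naive DLBCL differed in none of the 7 genes (0 called, and 0 at an unadjusted p under 0.05). Over the whole array 0% of the 43035 probesets were called by limma, and 2392 had an unadjusted p under 0.05. BCL6 differed by 0.23 (95% interval -0.42 to 0.89), PRDM1 by -0.33 (95% interval -1.10 to 0.44) and XBP1 by 0.06 (95% interval -0.33 to 0.46). EBF1 had the widest mean difference, 0.42 (95% interval -0.10 to 0.93). The intervals of BCL6, PRDM1, POU2AF1 and EBF1 leave room for differences near 1, so that these data do not show the groups to be alike.

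The values of the relapsed dogs lay closer together than those of the naive dogs for several genes, but not for IRF8 (SD 0.39 in relapsed and 0.31 in naive dogs). The SD of BCL6 was 0.38 in relapsed and 0.94 in naive dogs, and that of POU2AF1 was 0.41 in relapsed and 1.02 in naive dogs. Among naive dogs, BCL6 was lowest in sample 20 and highest in sample 5, and POU2AF1 was lowest in sample 5 and highest in sample 1. This difference in spread was not tested. In the dog sampled in both states, BCL6 was 10.46 in the relapsed and 9.64 in the naive sample, PRDM1 6.18 relapsed and 6.95 naive, XBP1 11.79 relapsed and 11.33 naive, and POU2AF1 9.58 relapsed and 10.07 naive. Each of these shifts was smaller than the SD between naive dogs.

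The 7 genes were then compared with each other over the 22 DLBCL dogs, in 21 pairs. Of these, 3 passed the Benjamini-Hochberg adjustment of a two-sided permutation test of Pearson's r. PRDM1 and XBP1, successive factors of plasma cell differentiation, ran together most closely, with r = 0.85 (p = 1e-05, the smallest that 100000 permutations can give, adjusted p = 0.00021) and rho = 0.75 (p = 0.00012). Samples 21 and 5 held the highest values of both genes. Without these 2 dogs, which were farthest from the PRDM1 median, r was 0.69, and over naive samples alone it was 0.87. Array day was known for part of the dogs, and r was 0.48 within day 1 (8 dogs) and 0.73 within day 2 (7 dogs).

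BCL6 also ran with XBP1 (r = 0.59, p = 0.0038, adjusted p = 0.040, and rho = 0.54, p = 0.0096, adjusted p = 0.051, by permutation). The relation was 0.39 without samples 5 and 18 (adjusted p = 0.20), 0.79 without samples 5 and 20, 0.0021 within day 1 and 0.86 within day 2. BCL6 and PRDM1, which repress each other in germinal centre B cells, were not inversely related over these whole nodes, with r = 0.56 (adjusted p = 0.074) and rho = 0.55 (adjusted p = 0.051, both by permutation). BCL6 and PAX5 ran in opposite directions (r = -0.60, p = 0.0058, adjusted p = 0.041, and rho = -0.60, p = 0.0041, adjusted p = 0.044, by permutation). This held within day 1 (-0.72) and day 2 (-0.69) and was -0.84 without samples 5 and 20, but with the mean of all PAX5 probesets it was -0.36 (adjusted p = 0.16).

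**Figure D3:**
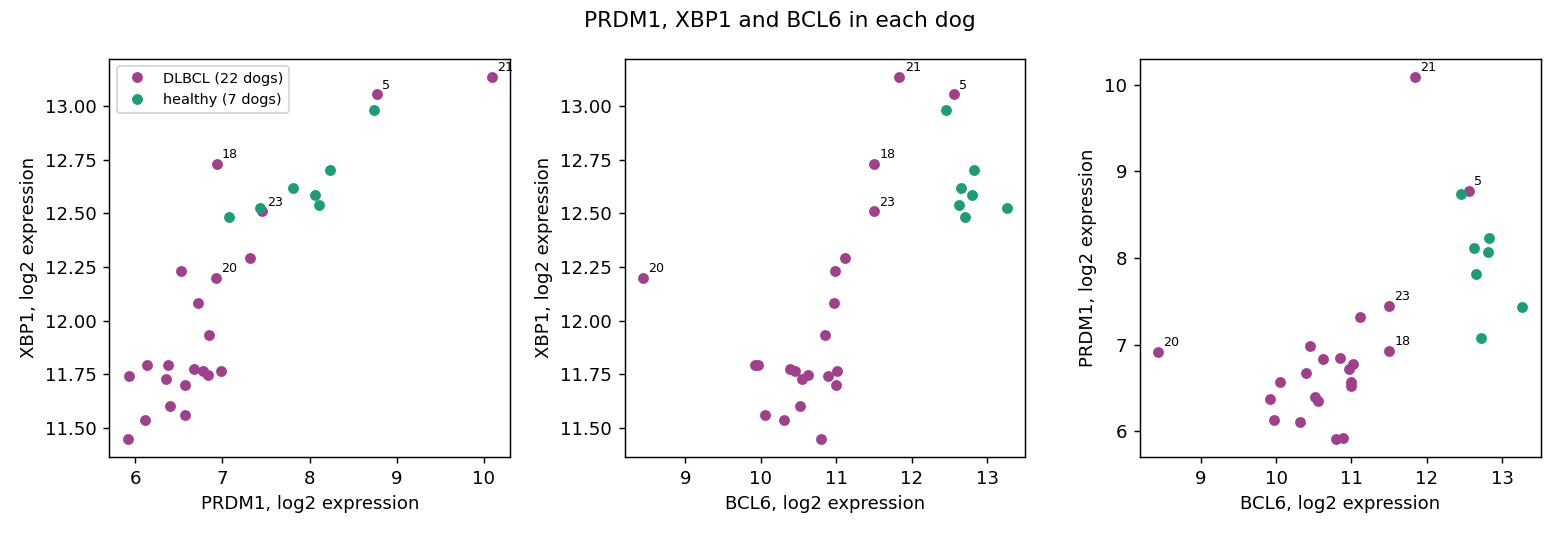
Log2 expression of XBP1 against PRDM1, XBP1 against BCL6 and PRDM1 against BCL6 in each of 22 DLBCL and 7 healthy dogs, with the numbers of DLBCL samples 5, 18, 20, 21 and 23. PRDM1 and XBP1 rise together over the DLBCL dogs (r = 0.85), with samples 21 and 5 at the top, and sample 20 has the lowest BCL6 value.

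The same factors were set against the means of 10 marker lists over the DLBCL dogs, and 16 of the 70 relations passed the adjustment. PRDM1 ran with the plasma cell markers (r = 0.70, rho = 0.60, adjusted p = 0.0082 and 0.030, by permutation) and with the markers of natural killer (NK) cells (r = 0.78, rho = 0.58, adjusted p = 0.0017 and 0.038, by permutation). Without samples 5 and 21, r was 0.47 with plasma cell and 0.46 with NK cell markers. Sample 21 had the highest mean of the plasma cell list, 10.47, and of the NK cell list, 9.95. PRDM1 also ran with the macrophage markers (r = 0.60, rho = 0.69, adjusted p = 0.0082 and 0.011, by permutation) and the follicular helper T-cell markers (r = 0.59, rho = 0.69, adjusted p = 0.0082 and 0.011, by permutation), and without samples 5 and 21 these were 0.64 for macrophage and 0.65 for follicular helper T-cell markers. Its relation with the T-cell markers (r = 0.53, adjusted p = 0.048) lost its call without samples 5 and 18 (r = 0.52, adjusted p = 0.10, by permutation). PRDM1 is also used by cytotoxic T cells and NK cells, and the gene whose level followed it best was CD8A, the marker of cytotoxic T cells (r = 0.94). PILRA (0.92) and MERTK (0.90) came close. Without samples 5 and 18, r was 0.92 for CD8A, 0.91 for PILRA and 0.94 for MERTK. Sample 21, the highest for PRDM1, stayed in, and r without samples 5 and 21 was not computed for these genes. Which cells gave the PRDM1 signal was not tested.

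XBP1 ran with the macrophage (r = 0.77, rho = 0.70, adjusted p = 0.0017 and 0.011, by permutation), NK cell (r = 0.75, rho = 0.54, adjusted p = 0.0021 and 0.052, by permutation) and plasma cell markers (r = 0.64). Without samples 5 and 21, r was 0.75 with macrophage, 0.47 with NK cell and 0.44 with plasma cell markers. XBP1 ran against the B-cell markers (r = -0.59, rho = -0.32, adjusted p = 0.027 and 0.30, by permutation), at -0.44 without samples 5 and 18 (adjusted p = 0.12) and -0.14 without samples 5 and 21. BCL6 ran with NK cell (r = 0.71, rho = 0.73, adjusted p = 0.0022 and 0.011, by permutation), T-cell (r = 0.66), macrophage (r = 0.62) and follicular helper T-cell markers (r = 0.61), and with the B-cell markers at r = -0.61 (adjusted p = 0.073 by permutation). The T-cell relation of BCL6 was 0.79 within day 1 and 0.48 within day 2. Its relation with macrophage markers lost its call without samples 5 and 18 (r = 0.50, adjusted p = 0.10 by permutation), and that with NK cell markers kept it (r = 0.60, adjusted p = 0.044 by permutation).

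EBF1 instead followed the B-cell markers (r = 0.86, rho = 0.51, adjusted p = 0.0022 and 0.074, by permutation), and r was 0.75 without samples 5 and 18. It was 0.87 within day 1 but -0.53 within day 2. EBF1 ran against the cycling markers (r = -0.55, rho = -0.65, adjusted p = 0.048 and 0.019, by permutation), at -0.76 within day 1 and -0.74 within day 2. POU2AF1 and the B-cell markers had r = 0.73 but rho = 0.04, and r was -0.19 without samples 5 and 18, so that the relation did not hold without these dogs. IRF8 ran against the stroma and endothelium markers by r (-0.53, adjusted p = 0.048) but not by rank (rho = -0.51, adjusted p = 0.074, both by permutation). Without samples 5 and 18 the IRF8 relation was -0.46 (adjusted p = 0.12), and it was -0.27 within day 1 and -0.89 within day 2.

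**Figure D4:**
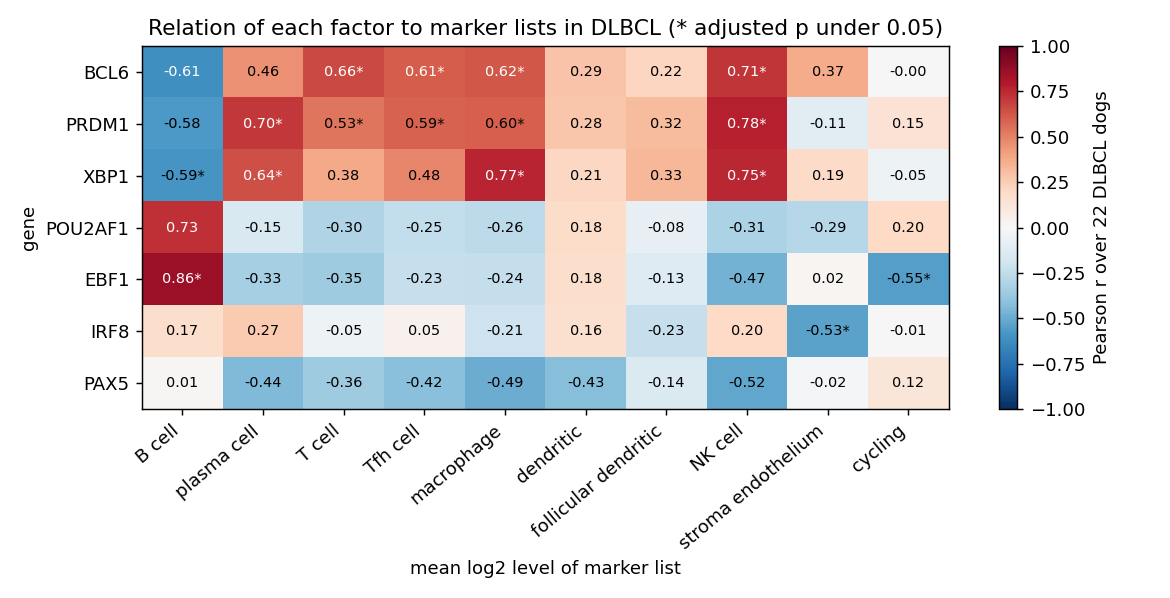
Pearson r over the 22 DLBCL dogs between each of the 7 genes (rows) and the mean log2 level of 10 marker lists (columns), with an asterisk at an adjusted permutation p under 0.05. BCL6, PRDM1 and XBP1 have r of 0.71 to 0.78 with NK cell markers, and EBF1 has its strongest relation with B-cell markers (0.86). Without samples 5 and 21, r with NK cell markers is 0.46 for PRDM1 and 0.47 for XBP1.

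Over all measured genes, the 3 that followed each factor best over the 22 DLBCL dogs are given as a description. For BCL6 they were PLCL1, LETM2 and RGS2 (r = 0.84 to 0.85), and for PRDM1, after CD8A, PILRA (r = 0.92) and MERTK (r = 0.90). XBP1 was followed by SELENOS, a protein of endoplasmic reticulum quality control, (r = 0.93), LOC611847 (r = 0.91) and SLC11A1 (r = 0.90). EBF1 was followed by CD79B, a chain of the B-cell receptor complex (r = 0.90), GH1 (r = 0.90) and CA11 (r = 0.88). POU2AF1 was followed by ITGB1BP1 (r = 0.89), ACSL3 (r = 0.86) and BLNK, an adaptor of B-cell receptor signalling (r = 0.85, and 0.45 without samples 5 and 18). The best values for IRF8 (C1GALT1, SLC66A2 and RHEBL1, 0.73 to 0.76) and PAX5 (ZDHHC13, CEP78 and ADAMTS16, 0.72 to 0.73) were lower.

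Genes that act with the factors, or are known to be controlled by them, were counted in 7 lists. Of all measured genes, 19.9% were called higher and 14.9% lower in DLBCL. The counts of the lists were not tested against these shares. Of 16 measured germinal centre genes, 4 were higher and 4 lower in DLBCL, with a median difference of -0.27, against 0.06 over all genes. RGS13, a regulator of G-protein signals in germinal centre B cells, fell to 5.18 ± 1.47 (SD, n = 22) in DLBCL against 8.31 ± 1.04 (SD, n = 7) in healthy nodes, a difference of -3.13 (limma, adjusted p = 0.00011). SSBP2 (-1.97) and MME, the surface protein CD10 (-1.39), also fell, whereas STAP1 (1.10), the uracil glycosylase UNG (1.07) and the methyltransferase EZH2 (0.57) rose.

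Of 11 genes known as targets of BCL6 repression, 3 were higher and 4 lower, with a median of -0.21. CHEK1, a kinase of the DNA damage checkpoint (1.51), and MYC (1.04) were higher, and the costimulatory ligand CD80 (-1.98) and the cell cycle inhibitor CDKN1A (-1.34) were lower. Of 13 targets of PAX5 and EBF1, 3 were higher and 1 lower, with a median of 0.42. BLK, a kinase of B-cell receptor signalling (1.17), and BLNK (1.02) were higher, and the cytokine receptor IL7R, which T cells also carry, was lower (-2.16).

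Of 11 plasma cell genes, 3 were higher and 4 lower, with a median of 0.06. CD27 (-3.55), CD38 (-1.59), the immunoglobulin joining chain JCHAIN (-1.37) and SLAMF7 (-0.64) fell. FKBP11, a chaperone of secretory cells (0.73), SSR4 (0.39) and SDC1, one of the plasma cell markers above (0.32), rose. CD27 and CD38 are carried by T cells and other cells too. Of 15 targets of XBP1 in the endoplasmic reticulum, 2 were higher and 2 lower, with a median of -0.08. HYOU1 (0.54) and PDIA4 (0.35), which help proteins to fold, rose, and SEC24D, of the vesicle coat, fell (-0.59).

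Among 18 genes known from the activated B-cell type of human DLBCL, 2 were higher and 3 lower, with a median of -0.00. TNFRSF13B, the receptor TACI, rose by 1.21 and IL16 fell by 0.58. Among 21 partner factors 6 were higher and 5 lower, with a median of 0.03, and MITF (-0.95), FOXO1 (-0.90) and the cell cycle factor E2F1 (0.83) differed most. In none of the 7 lists was a gene called between relapsed and naive DLBCL, and with RIN as a covariate none was called between DLBCL and healthy nodes.

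**Figure D5:**
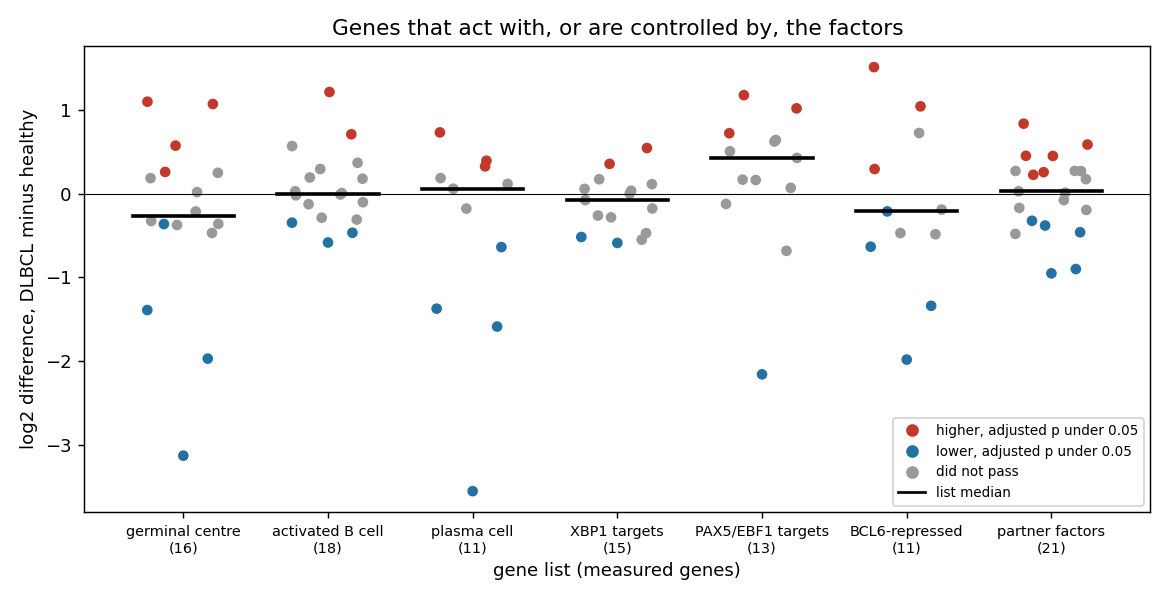
Log2 difference, DLBCL minus healthy, of each measured gene in 7 lists (points, coloured by call) with the list medians (bars). Every list holds genes called in both directions, and the targets of PAX5 and EBF1 have the highest median (0.42).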

How the data were processed

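RNA of lymph nodes was measured on 33 Affymetrix Canine Genome 2.0 arrays. The authors applied RMA with the Affymetrix Expression Console to the scanned intensities, and log2 values were deposited for 43035 probesets. RMA gives arrays one distribution, compresses changes of dim probesets and hides a change of total RNA per cell. The submitters' processing notes also name Partek. The number of arrays limits the precision.

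Groups came from the sample labels, and arrays with the same case number were averaged as 1 dog. All groups share RNA extraction in 2 random batches, whose members are not known here. The array day was known for 18 of 23 DLBCL arrays, from page text of a supplement, and was used as an alternative block. The days of the healthy arrays were not used, and batch was therefore no term in any comparison with healthy nodes.

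Tests were run with limma 3.58.1 (R 4.3.3) and Benjamini-Hochberg adjustment over all 43035. The platform annotation gave 1 symbol to 29264 probesets, several to 439 and none to 13332. Named genes are the members, up to 3 called genes of each related list with the largest difference and further genes of these lists as examples, and the 3 genes that follow each member best. The genes of the natural killer cell list are named too. Members and lists were chosen with earlier results of these data known. Correlations used 100000 permutations (Python 3.11.15, scipy 1.17.1), with pandas 2.3.3, numpy 2.4.6 and matplotlib 3.10.9. Tested on simulated data for DLBCL against healthy dogs, limma found 62% of changes of 0.5, 86% of 1 and 100% of 2 and 3, with 10 false calls. In relapsed against naive samples it found 46%, 78%, 98% and 100%, with 11 false calls. The simulated noise was independent between probesets, with the same SD in both groups and no difference in RIN. The false calls therefore do not give the error rate of the real comparisons. Alternatives were other normalizations, leaving out probesets with means under the 25th percentile, arrays as separate samples or blocked by dog, the methods' ANOVA, RIN as a covariate, the mean of a gene's probesets, a sample number block and leaving out dogs.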

Additional observations from a re-analysis of the deposited data

Results flagged for a closer look

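In 1 of 14 groups of dogs tested (7 genes in relapsed and in healthy dogs), 1 dog lay far from the others. EBF1 was lowest in healthy dog 7, at 10.54, and the next healthy dog had 11.43, a gap of 0.796 of the whole range of the 7 healthy dogs. The limit used is one that chance passes in about 1 of 20 groups.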

How the results depend on the processing

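With RIN as a covariate the count of called genes was 0 in DLBCL, in relapsed and in naive nodes against healthy ones, where it had been 4, 3 and 4. RIN differs between the groups, and the cause was not tested. Leaving out 1 healthy dog at a time gave 3 to 4 called genes for DLBCL, 1 to 3 for relapsed and 3 to 4 for naive DLBCL. The share of all genes called in these fits was not counted, other than for DLBCL with RIN, given above. PRDM1 in naive DLBCL lost its call without healthy dog 1, 5, 7, 8 or 9 (adjusted p up to 0.12).

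Directions turned only for differences that had not passed. EBF1 was -0.18 in DLBCL under the replicate block and -0.042 in naive DLBCL without healthy dog 7 (up to 0.14 without another healthy dog). Between relapsed and naive samples, PRDM1 was 0.10 with array day as a block and PAX5 0.013 without samples 5 and 18. The replicate block on sample numbers called 5 genes (IRF8 added, adjusted p = 0.034). Sample numbers are shared by different dogs, the correlations of 9 pairs were -0.142 to 0.130, and 1 of them correlated best with its own number. The methods' ANOVA also called 5, with PAX5 added (adjusted p = 0.041), as did averaging all probesets of a gene (PAX5 adjusted p = 0.017, limma). That ANOVA took arrays of one dog as separate samples. The share of all genes called under the replicate block, the ANOVA and the probeset mean was not counted, so the added calls are not read as results about IRF8 or PAX5. The mean of probesets left 1 of 3 correlated pairs, PRDM1 with XBP1. Signal near the control probesets limits PAX5.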
